A study of Mus musculus with 18 samples.

Results

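The genes described here encode the SR proteins, the heterogeneous nuclear ribonucleoproteins (hnRNPs), the polypyrimidine tract binding (PTB) proteins and a few RNA-binding partners of theirs, the Staufen proteins and the DEAD/DEAH-box helicases. They were taken from a fixed list of 44 gene symbols by family. The rule itself uses no measured value, but the list was drawn up with earlier results of these data known. Of these, 40 had counts in the files and all 40 were tested in both muscles, out of 46725 genes in the series. Srrm2, Hnrnpa3, Hnrnpm and Ddx5 were not analysed here. By family the 40 were 10 SR proteins, 4 SR-related genes, 18 hnRNPs, 3 PTB genes and 5 genes of the Staufen and helicase group.

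RNA came from gastrocnemius and quadriceps of FVB mice aged 20 weeks, in 3 groups of 3 mice that each gave both muscles, 18 libraries in all. WT mice were FVB animals labelled untreated. HSA-LR mice carry a human skeletal actin transgene with an expanded CTG repeat in its 3′ UTR and were also labelled untreated, although the protocol in the labels names a saline injection without saying which mice had it. All mice were labelled male except WT replicate 2, and nothing beyond the replicate numbers describes the animals, which came as 1 sample a mouse and muscle. Because that transgene is driven by a skeletal muscle promoter, its repeat RNA is made in muscle fibres and not in the other cells of the tissue. Treated mice were HSA-LR animals given Pip6a-PMO, a morpholino oligomer of CAG repeats joined to a cell-penetrating peptide, by intravenous injection. The comparisons ask how far the RNAs of the splicing regulators themselves differed between HSA-LR and WT muscle, and where they stood after treatment.

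SR proteins bind exonic enhancers through RNA recognition motifs and recruit the spliceosome through their arginine- and serine-rich tails. hnRNPs and PTB proteins coat nascent RNA and often repress exons, and the MBNL proteins trapped by the CUG repeat work on the same pre-mRNAs. Many of these genes regulate their own RNA through poison exons, whose inclusion brings a premature stop and sends the transcript to nonsense-mediated decay (NMD). The data therefore hold 2 readouts for each gene, its total RNA and the use of each stretch of its exons.

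Library depth ran from 98916844 to 143135976 counts assigned to genes. The level of a gene is given as normalized CPM, its counts scaled to a common library size. Treated gastrocnemius replicate 3 stood apart in coverage, with a log2 ratio of 5′ to 3′ coverage of -2.41, against -2.07 to -1.88 in the other libraries. In gastrocnemius this ratio was also higher in every HSA-LR library (-1.97 to -1.94) than in every WT library (-2.07 to -1.99), whereas in quadriceps the groups overlapped. For WT replicates 2 and 3 the Y-linked RNA went against the sex given in the labels, with 152.8 and 188.9 CPM over 4 Y-linked genes in the mouse labelled female and 1.13 and 1.45 CPM in the mouse labelled male. Muscle fibre markers, 6 genes that dominate the libraries, summed to 121442 to 161588 CPM in WT and 99709 to 115319 CPM in HSA-LR gastrocnemius. In quadriceps of HSA-LR mice 4 of 5 macrophage and leukocyte markers were called higher than in WT (summed level 62.0 to 81.6 against 33.9 to 45.1 CPM), 2 of 4 fibroblast markers were higher, and 3 of 5 endothelial, 3 of 6 fibre and 3 of 3 tested nerve markers were lower. In whole muscle, fewer cells of a type and less RNA per cell cannot be told apart, and the part of these markers in the results below was not tested.

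Most splicing regulators were expressed at close to the WT level in HSA-LR muscle. With differences called at an adjusted P under 0.1 in edgeR's quasi-likelihood test, 7 of the 40 genes were called in at least 1 comparison and 33 in none. The same count over all genes was not made, and the backgrounds of each comparison are given below. The median size of the difference between HSA-LR and WT, regardless of sign, was 0.07 on the log2 scale in gastrocnemius and 0.10 in quadriceps, beside 0.22 and 0.24 over all genes tested. Signed medians were -0.01 and -0.03, beside -0.01 and 0.01 over all genes. The 40 genes were not matched for level with all genes, which include genes of low counts. No gene of the 40 differed by more than 0.5 on the log2 scale between HSA-LR and WT in either muscle.

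In gastrocnemius, 1 gene rose and 2 fell in HSA-LR mice, when 8.60% of all 15625 genes tested were called higher and 6.94% lower. In quadriceps, 1 gene rose and 5 fell, when 11.0% of all 15574 genes were called higher and 9.31% lower. The members' shares called higher lay below these backgrounds in both muscles, and 5 of 40 lower in quadriceps was near it. Hnrnpab and Srsf6 fell and Hnrnpa1 rose in both muscles. Srsf7, Tra2a and Srsf9 fell in quadriceps.

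Of the 10 SR proteins, Srsf6, an enhancer-binding SR protein, had the steadiest difference. Its level in gastrocnemius was 69.4, 69.5 and 64.9 CPM in the 3 WT mice, 56.8, 58.3 and 52.3 in HSA-LR mice and 72.9, 71.1 and 65.6 in treated mice. In quadriceps the values were 65.7, 68.5 and 69.0 in WT, 54.3, 55.6 and 53.2 in HSA-LR and 72.8, 65.4 and 68.2 in treated mice. Every HSA-LR sample of Srsf6 lay below every WT and every treated sample in both muscles. The log2 difference between HSA-LR and WT was -0.28 ± 0.08 (SE, adjusted P = 0.048) in gastrocnemius and -0.32 ± 0.07 (adjusted P = 0.018) in quadriceps. The quadriceps call held under all 15 alternatives tried, and the gastrocnemius call was lost without WT replicate 1 or 2 or HSA-LR replicate 1 or 3, and with a filter of at least 1 count (adjusted P up to 0.17).

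Srsf7, a small SR protein that also takes part in mRNA export, was 30.6, 33.0 and 31.1 CPM in WT quadriceps and 26.7, 26.1 and 26.6 CPM in HSA-LR quadriceps. The groups did not overlap, and the log2 difference was -0.26 ± 0.07 (adjusted P = 0.041). In gastrocnemius the difference of Srsf7 was -0.12 ± 0.09 (adjusted P = 0.46), with overlapping groups. Srsf9, a small SR protein that often represses exons, stood at 11.3, 9.03 and 9.68 CPM in WT and 8.19, 8.26 and 7.11 CPM in HSA-LR quadriceps, a log2 difference of -0.35 ± 0.12 (adjusted P = 0.089), a call lost under 11 of 15 alternatives (adjusted P up to 0.31). Its difference in gastrocnemius was of similar size, -0.37 ± 0.13, and just missed the call (adjusted P = 0.104). The other 7 SR proteins passed no test between these groups. They included Srsf1, the founding member of the family, at 70.9 ± 4.39 CPM in WT and 69.5 ± 1.29 CPM in HSA-LR gastrocnemius (mean ± SD, n = 3), along with Srsf2, Srsf3, Srsf4, Srsf5, Srsf10 and Srsf11. Of these, Srsf4 also just missed the call in gastrocnemius, in the other direction (0.20 ± 0.07, adjusted P = 0.101). HSA-LR samples of Srsf4 lay above all WT samples in both muscles (quadriceps 0.13 ± 0.07, adjusted P = 0.27).

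Among the SR-related genes, Tra2a, which encodes a partner of SR proteins on purine-rich enhancers, was 24.7, 24.3 and 27.0 CPM in WT quadriceps and 21.7, 20.6 and 20.1 CPM in HSA-LR quadriceps, a log2 difference of -0.29 ± 0.08 (adjusted P = 0.052). In gastrocnemius the difference was -0.27 ± 0.15 (adjusted P = 0.30). Its paralog Tra2b stood at 51.9 CPM in WT and 51.2 CPM in HSA-LR gastrocnemius on average. Neither the SR-related matrix gene Srrm1 nor Son, a large protein of nuclear speckles, passed the test in either muscle.

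Of the 18 hnRNP genes, Hnrnpab and Hnrnpa1 passed the test, in opposite directions. Hnrnpab, an A/B-type hnRNP that binds RNA and single-stranded DNA, was 110, 103 and 107 CPM in WT, 82.6, 77.2 and 81.3 CPM in HSA-LR and 111, 108 and 111 CPM in treated gastrocnemius. In quadriceps it was 111, 104 and 101 CPM in WT, 86.7, 83.9 and 89.8 CPM in HSA-LR and 96.1, 103 and 107 CPM in treated mice. HSA-LR mice were below both other groups without overlap in either muscle. The log2 difference from WT was -0.40 ± 0.07 (adjusted P = 0.0069) in gastrocnemius, the smallest P of the 40 genes in that comparison, and -0.28 ± 0.07 (adjusted P = 0.036) in quadriceps.

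Hnrnpa1, which binds exonic silencers and antagonizes SR proteins at splice sites, ran the other way. Its level was 80.03, 79.91 and 95.9 CPM in WT, 112, 115 and 109 CPM in HSA-LR and 101, 108 and 79.1 CPM in treated gastrocnemius. In quadriceps it was 81.1, 81.5 and 80.1 CPM in WT, 104, 93.9 and 106 CPM in HSA-LR and 94.4, 88.6 and 88.5 CPM in treated mice. All HSA-LR samples of Hnrnpa1 lay above all WT samples in both muscles. Treated samples of gastrocnemius ran from below all WT samples (79.1 CPM, replicate 3) to above them, and in quadriceps all 3 lay above WT, with 1 within the range of HSA-LR. The log2 difference from WT was 0.39 ± 0.12 (adjusted P = 0.076) in gastrocnemius and 0.32 ± 0.07 (adjusted P = 0.019) in quadriceps. Without WT replicate 1 or 2 or any HSA-LR replicate the gastrocnemius call was lost (adjusted P up to 0.21), as it was with the replicate block (0.39, adjusted P = 0.15). Hnrnpa1 has many near-identical processed copies in mammalian genomes, and reads shared with such copies could be split or dropped in counting.

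Hnrnpa2b1 had the highest level per kilobase of the 31 genes whose level could be set against their exon length. It had 97.6 CPM per kilobase in WT gastrocnemius and 103 in WT quadriceps. The length is that of all annotated exon bins, noncoding ones included, so the ranking depends on the annotation. Srsf5 (38.6), Hnrnpab (38.2) and Hnrnph1 (35.96 CPM per kilobase in WT gastrocnemius) came next, and Hnrnpr (1.22) and Ptbp3 (1.18) were lowest. Hnrnpa2b1 passed no gene-level test, with 642 ± 75.5 CPM in WT and 604 ± 24.1 CPM in HSA-LR gastrocnemius. The other 15 hnRNP genes, Hnrnpa0, Hnrnpc, Hnrnpd, Hnrnpdl, Hnrnpf, Hnrnph1, Hnrnph2, Hnrnph3, Hnrnpk, Hnrnpl, Hnrnpll, Hnrnpr, Hnrnpu, Hnrnpul1 and Hnrnpul2, passed none either.

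The 3 PTB genes encode repressors of muscle and neuronal exons. Ptbp1, the form found in most tissues, was 30.16, 32.01 and 34.59 CPM in WT, 29.6, 34.2 and 31.3 CPM in HSA-LR and 28.8, 29.7 and 22.8 CPM in treated gastrocnemius. Ptbp2 and Ptbp3 averaged 21.8 and 8.81 CPM in WT gastrocnemius. None of the PTB genes passed a test in any comparison, and between HSA-LR and WT their log2 differences ran from -0.20 to 0.17 over both muscles. In the Staufen and helicase group, Stau2, which encodes a double-stranded RNA binding protein, had the largest difference of HSA-LR from WT, 0.38 ± 0.16 in gastrocnemius (adjusted P = 0.17) and 0.28 ± 0.12 in quadriceps (adjusted P = 0.18), and passed neither test. Stau1, Ddx6, Ddx17 and Dhx9 passed none in this comparison.

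**Figure D1:**
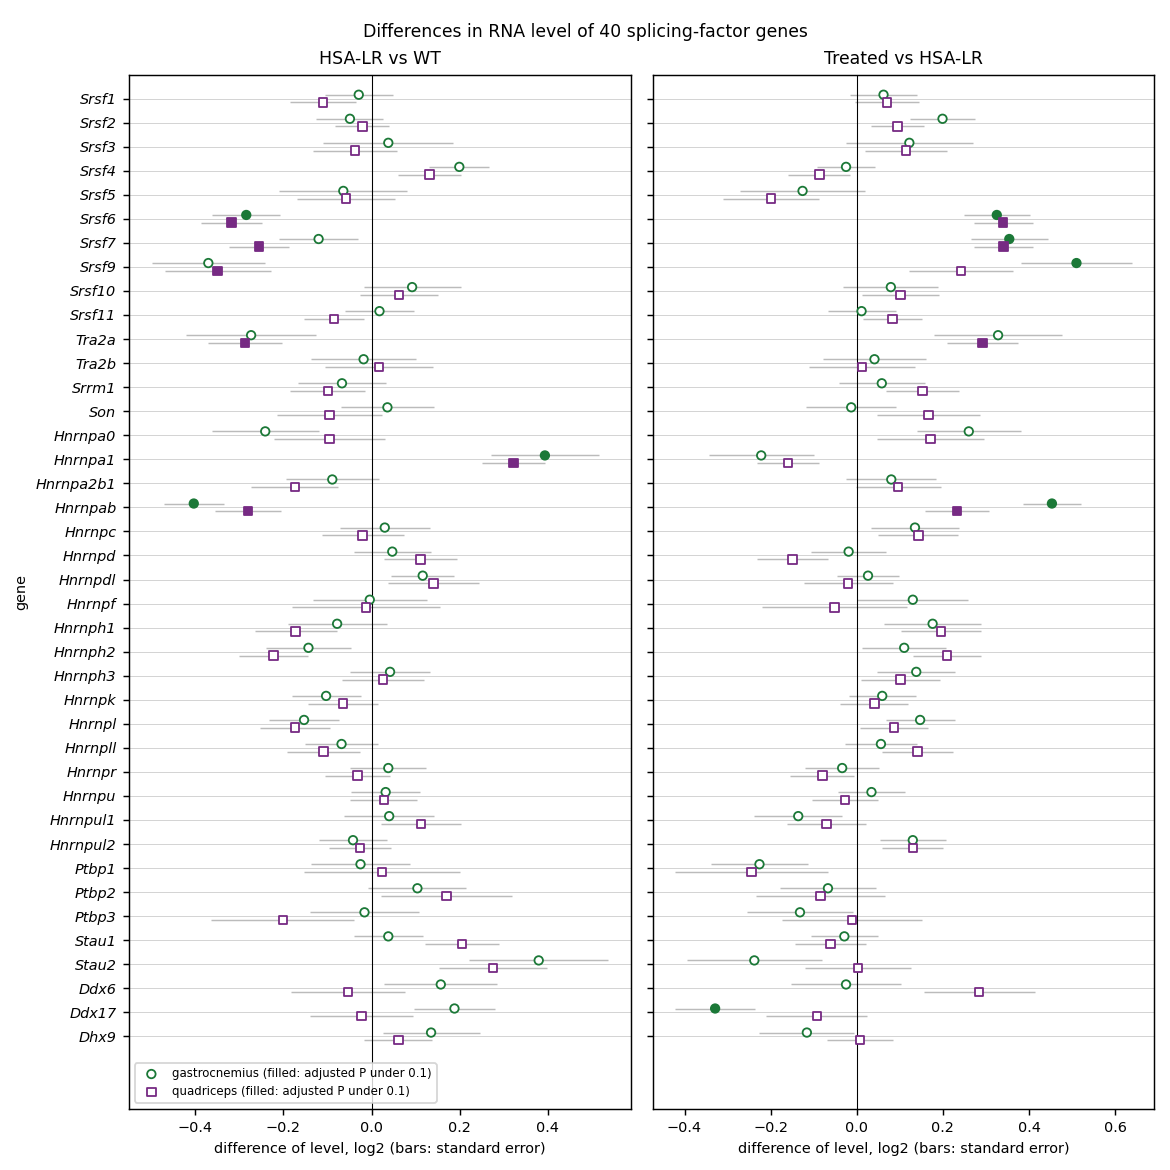
Log2 difference of RNA level for each of the 40 genes (rows), HSA-LR against WT on the left and treated against HSA-LR on the right, with standard errors as bars, gastrocnemius as circles and quadriceps as squares, and filled marks where the adjusted P was under 0.1. Srsf6 and Hnrnpab sit left of 0 on the left panel and right of 0 on the right panel in both muscles, and most other genes sit near 0.

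After treatment, edgeR called none of the 40 genes against WT in either muscle. Over all genes tested, 1.04% were called between treated and WT gastrocnemius and 1.41% in quadriceps. At an unadjusted P under 0.05, 2 of the 40 genes passed in each muscle, when 10.5% of all genes passed in gastrocnemius and 12.5% in quadriceps. The smallest adjusted P was 0.41 in gastrocnemius and 0.39 in quadriceps, and DESeq2 also called 0 in each.

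Against untreated HSA-LR mice, treated gastrocnemius had 4 genes higher and 1 lower, with backgrounds of 4.49% higher and 5.53% lower over all genes. Treated quadriceps had 4 higher and 0 lower, with backgrounds of 6.54% and 7.22%. In this comparison fibre markers were called higher (4 of 6 in gastrocnemius, 3 of 6 in quadriceps), leukocyte markers lower (2 of 5 and 4 of 5) and nerve markers higher in quadriceps (3 of 3), and their part in the gene differences was not tested. These comparisons share their HSA-LR samples with the comparisons against WT, so the values are given side by side and not as a second line of evidence. Hnrnpab was 0.45 ± 0.07 higher on the log2 scale in treated than in HSA-LR gastrocnemius (adjusted P = 0.0087) and 0.23 ± 0.07 higher in quadriceps (adjusted P = 0.091), where the call was lost under 11 of 15 alternatives. Srsf6 was 0.33 ± 0.08 higher in gastrocnemius (adjusted P = 0.046) and 0.34 ± 0.07 in quadriceps (adjusted P = 0.025). The Srsf6 call in gastrocnemius was lost without any single HSA-LR replicate or treated replicate 1 or 2 (adjusted P up to 0.15). In quadriceps it was lost with the coverage ratio in the model (adjusted P = 0.117).

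Srsf7 was 36.2, 40.1 and 38.3 CPM in treated against 31.2, 32.1 and 26.4 CPM in HSA-LR gastrocnemius. The groups did not overlap, and the log2 difference was 0.35 ± 0.09 (adjusted P = 0.057). In quadriceps Srsf7 was 34.0, 31.9 and 34.6 CPM after treatment, 0.34 ± 0.07 above HSA-LR (adjusted P = 0.025). The Srsf7 call was lost under 4 of 15 alternatives in gastrocnemius (adjusted P up to 0.14). In quadriceps it was lost with the coverage ratio in the model (adjusted P = 0.109). Srsf9 rose by 0.51 ± 0.13 in gastrocnemius (adjusted P = 0.055) and Tra2a by 0.29 ± 0.08 in quadriceps (adjusted P = 0.069). The Srsf9 call was lost under 6 of 15 alternatives and the Tra2a call under 8, among them the coverage ratio and the replicate block for each. Hnrnpa1 did not pass, with -0.22 ± 0.12 in gastrocnemius (adjusted P = 0.32) and -0.16 ± 0.07 in quadriceps (adjusted P = 0.19).

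The gene lower after treatment was Ddx17, an RNA helicase that acts as a splicing and transcription coregulator. It was 74.9, 75.9 and 66.0 CPM in treated and 93.1, 91.7 and 87.6 CPM in HSA-LR gastrocnemius, a log2 difference of -0.33 ± 0.09 (adjusted P = 0.075). The call was lost under 10 of 15 alternatives. WT samples, at 78.04, 88.16 and 72.88 CPM, lay across both. In quadriceps Ddx17 did not pass, at -0.09 ± 0.12 (adjusted P = 0.64). With the 5′ to 3′ coverage ratio in the model, the treated against HSA-LR count went from 5 to 3 in gastrocnemius and from 4 to 0 in quadriceps.

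**Figure D2:**
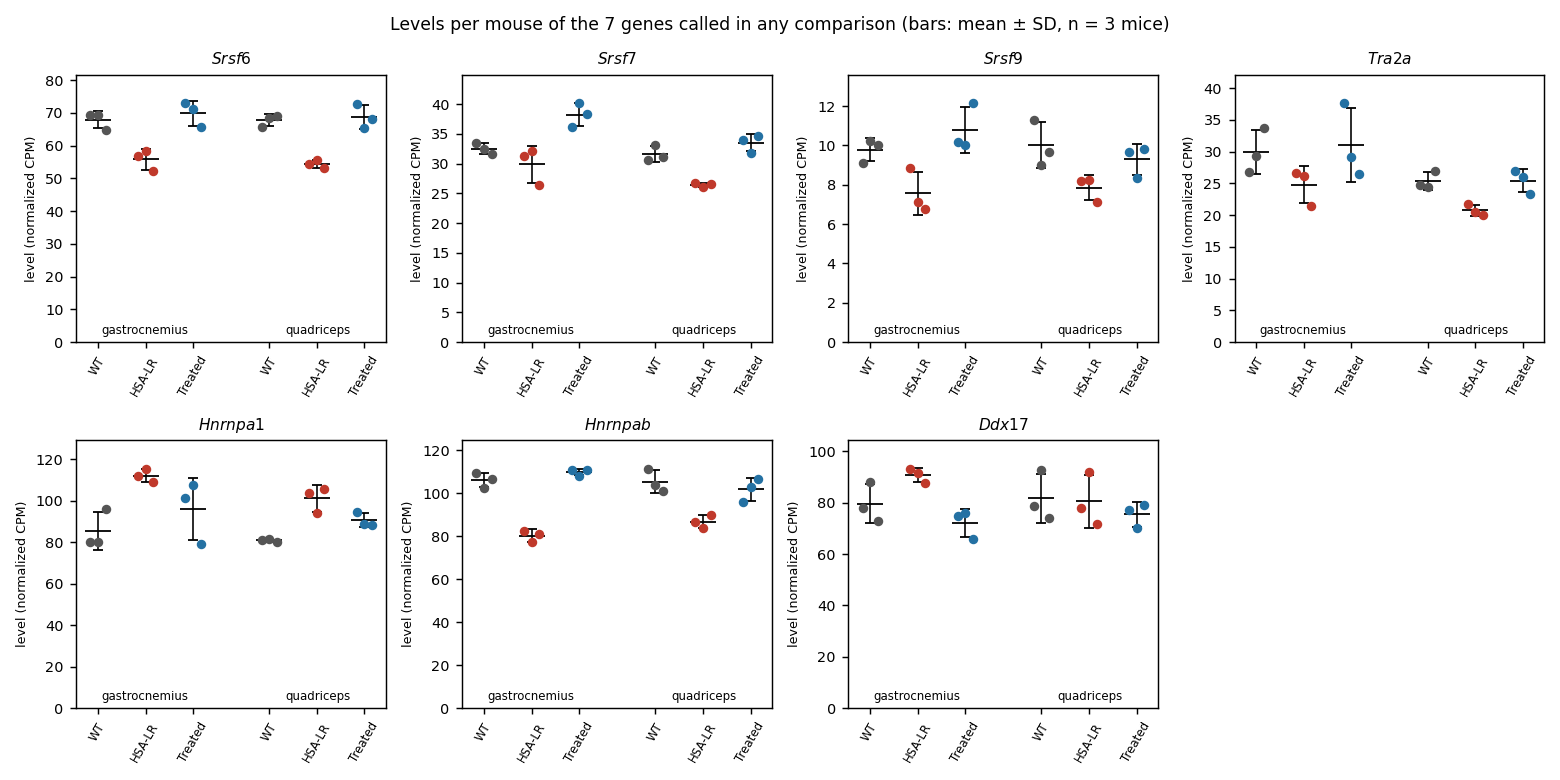
Level in normalized CPM of the 7 genes called in any comparison, 1 point per mouse, with WT in grey, HSA-LR in red and treated in blue, gastrocnemius on the left of each panel and quadriceps on the right, and bars for mean ± SD (n = 3). The HSA-LR points of Srsf6 and Hnrnpab lie below those of both other groups in each muscle, and those of Hnrnpa1 lie above WT.

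The difference of HSA-LR from WT was also compared between the muscles. None of the 40 genes and 0% of all 16167 genes passed this edgeR interaction test, which treated the libraries as separate mice. Since each mouse gave both muscles, the mouse, taken from the replicate number, was a block in another fit. In that fit 0 of the 40 and 5 of all genes passed, and 0 of the 40 had an unadjusted P under 0.05. Without the block, at an unadjusted P under 0.05 the test had 0 of the 40 genes and 710 of all genes, and DESeq2 called 0 of the 40. The interaction estimates of the 40 genes ran from -0.23 for Ddx17 to 0.15 for Stau1 on the log2 scale.

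The second readout was exon use. The files count reads in exon bins, stretches of a gene's merged exons cut wherever a transcript's exon begins or ends and numbered along the chromosome. The share of a bin is its counts as a percentage of all counts of its gene, and a bin was tested for a change relative to the rest of its gene. The 40 genes held 1111 bins, of which 920 in gastrocnemius and 919 in quadriceps, from 39 genes, were deep enough to test (Hnrnpa0 has a single bin). Placed on the GRCm38 annotation (31 genes), bins that touch coding sequence held 73.6% of counts, and UTR bins without a coding base 21.2%. Bins found only in retained-intron transcripts held 2.89%, those found only in transcripts annotated for NMD 0.18%, and other noncoding bins 2.09%. A bin with any coding base counts wholly as coding, so the UTR share is a lower bound. For the other 9 genes (Srsf3, Srsf7, Tra2b, Son, Hnrnpa1, Hnrnpc, Hnrnpk, Hnrnpul2 and Ddx17) the gene version differed from the annotation, so their bins are named by number.

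In edgeR's test, 6 bins were called between HSA-LR and WT gastrocnemius and 2 in quadriceps, when 0.819% and 0.284% of all bins were called. Between treated and HSA-LR mice 4 and 1 bins were called (backgrounds of 0.309% and 0.168%), and between treated and WT mice none (0.0654% and 0.0353%). At an unadjusted P under 0.05 the treated against WT test had 7 of 920 bins in gastrocnemius and 10 of 919 in quadriceps, when 0.982% and 0.716% of all bins passed. With limma's voom and diffSplice in place of edgeR, 14 bins were called between HSA-LR and WT in each muscle (backgrounds of 1.01% and 0.640%), 9 and 15 between treated and HSA-LR (0.609% and 0.470%), and 0 between treated and WT in each. By limma, 7 bins were called between HSA-LR and WT in both muscles, all 7 in the same direction in each. These were bin 1 of Hnrnpd, bin 24 of Srsf10, bin 1 of Hnrnpdl, bin 32 of Hnrnpa2b1, bin 12 of Srsf5 and bins 17 and 33 of Stau1. In edgeR only bin 1 of Hnrnpd was called in both. Each mouse gave both muscles, so they are not independent, and bins called in both were not counted over all bins tested.

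Hnrnpd (AUF1), an hnRNP that binds AU-rich elements and sets the stability of mRNAs, had the clearest change of exon use. Its bin 1 is the last 4663 bases of a 5399-base final exon, all 3′ UTR and present in a single annotated transcript (GRCm38, chr5:99955935-99960597, minus strand). In gastrocnemius it held 13.6%, 12.3% and 12.1% of the gene's counts in WT mice, 7.55%, 7.16% and 7.90% in HSA-LR mice and 11.03%, 13% and 10.78% in treated mice. In quadriceps it held 13.5%, 13.8% and 10.8% in WT, 6.18%, 6.25% and 6.35% in HSA-LR and 10.6%, 12.5% and 13.2% in treated mice. Every HSA-LR library was below every WT and treated library, in both muscles, with 487 to 1190 counts behind each share.

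Relative to the rest of Hnrnpd, this bin changed by -0.75 on the log2 scale in gastrocnemius (adjusted P = 0.016) and -1.03 in quadriceps (adjusted P = 0.0019) in HSA-LR mice. Treated against HSA-LR, it changed by 0.62 in gastrocnemius (edgeR adjusted P = 0.24, limma 8.9e-05) and 0.96 in quadriceps (edgeR adjusted P = 0.011). The level of the whole gene did not pass the test in either muscle (log2 differences of 0.05 and 0.11 between HSA-LR and WT). With the coverage ratio in the model, both calls against WT were kept. The gastrocnemius call was lost without WT replicate 1 or any single HSA-LR replicate (changes of -0.69 to -0.78, adjusted P up to 0.24).

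Bins at the distal end of the 3′ UTR were also used less in Srsf10 and Hnrnpdl. Srsf10 encodes a splicing regulator that becomes a repressor when dephosphorylated. Its bin 24 is the distal 1526 bases of a 2783-base final exon (chr4:135868383-135869908, plus strand), and it held 10.3%, 8.77% and 9.59% of counts in WT, 6.18%, 6.54% and 5.80% in HSA-LR and 9.43%, 9.56% and 13.6% in treated gastrocnemius. In quadriceps it held 10.7%, 9.03% and 9.69% in WT, 5.43%, 6.38% and 5.60% in HSA-LR and 9.35%, 8.65% and 10.5% in treated mice. HSA-LR was lowest without overlap in each muscle. For HSA-LR against WT, edgeR gave -0.63 (adjusted P = 0.106) and -0.75 (adjusted P = 0.147), which missed the call, and limma gave -0.69 and -0.82 (adjusted P = 0.00086 and 3.8e-07). Treated against HSA-LR gastrocnemius, edgeR called it at 0.79 (adjusted P = 0.017). The treated library with 13.6% was replicate 3, the one with the lowest 5′ to 3′ ratio, and without it the change was 0.62 (adjusted P = 0.113). The call was also lost without any single HSA-LR replicate (adjusted P from 0.145 to 0.30) and with the coverage ratio in the model (0.57, adjusted P = 0.41).

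Hnrnpdl is a paralog of Hnrnpd that shares its paired RNA recognition motifs. Its bin 1 is the distal 1144 bases of a final exon (chr5:100033577-100034720, minus strand). The share was 6.98%, 6.79% and 6.81% in WT and 5.38%, 4.98% and 4.60% in HSA-LR gastrocnemius, and 6.79%, 6.52% and 6.62% against 5.14%, 5.25% and 4.26% in quadriceps. Treated mice lay at 6.08% to 6.96% and 5.76% to 6.62%. The groups of HSA-LR and WT did not overlap, limma called the bin in both muscles (-0.46 in each, adjusted P = 0.024 and 0.037), and edgeR in neither (adjusted P = 0.66 and 1.0). This bin was singled out after its values were seen. In gastrocnemius every HSA-LR library also had a higher 5′ to 3′ coverage ratio than every WT library, and in quadriceps the ratio overlapped between the groups. The ratio is a median over 4820 genes, and the fits with it in the model are given above for the bins of Hnrnpd and Srsf10. Beyond such fits, its part in the shares of these 3′ bins was not tested.

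**Figure D3:**
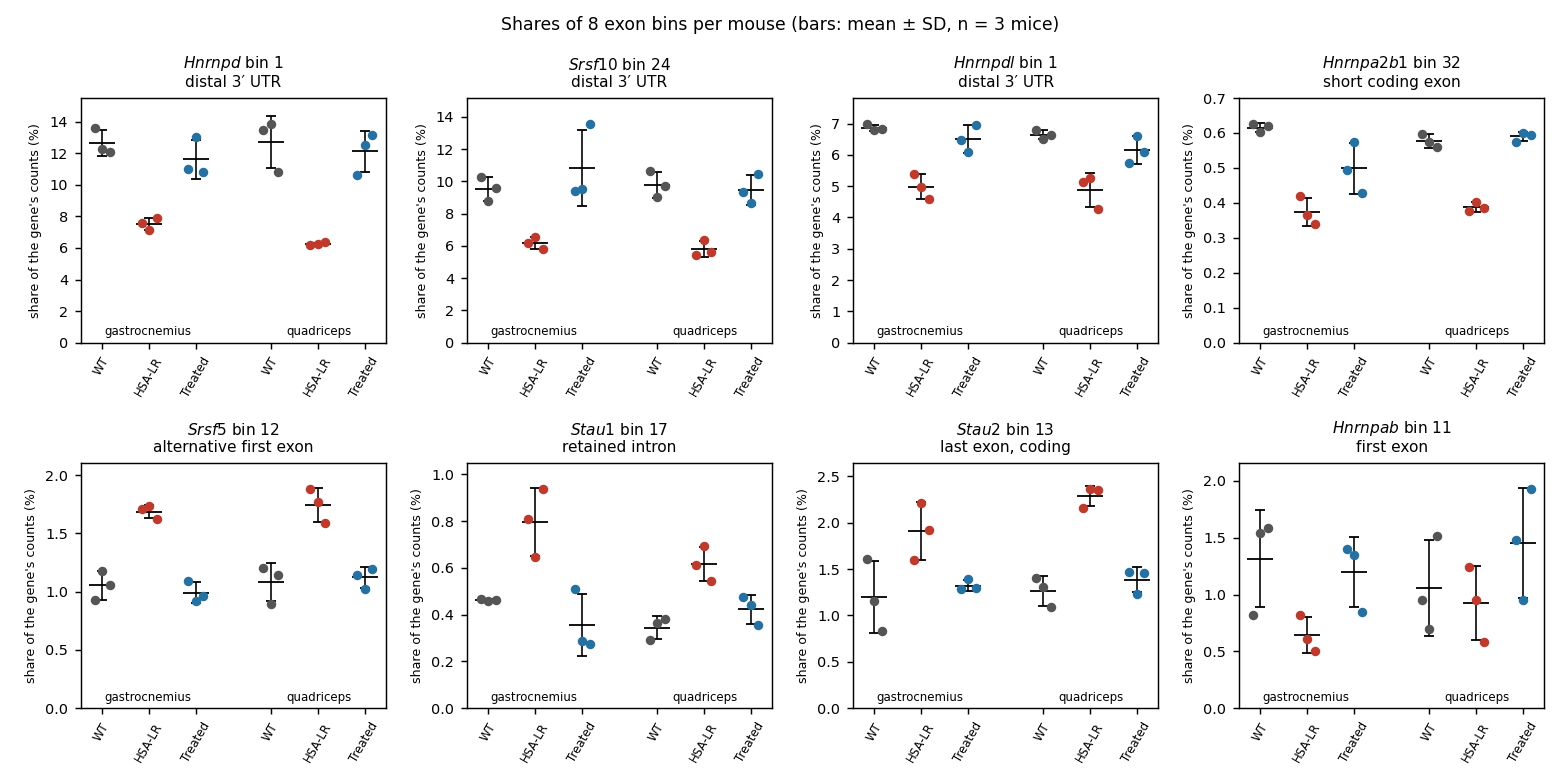
Share of the gene's counts (%) held by 8 exon bins, 1 point per mouse, with WT in grey, HSA-LR in red and treated in blue, gastrocnemius on the left of each panel and quadriceps on the right, and bars for mean ± SD (n = 3). The HSA-LR points of the 3 distal 3′ UTR bins and of the 36-nt exon of Hnrnpa2b1 lie below WT in both muscles, those of the Srsf5 first exon and the Stau1 intron above it, and those of the Hnrnpab first exon lie below WT in gastrocnemius and overlap it in quadriceps.

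Hnrnpa2b1 makes 2 proteins, A2 and the longer B1, from 1 alternative exon near the start of the coding sequence. The exon is bin 32, 36 bases or 12 codons long, exon 2 of 12 in the B1 transcript (GRCm38, chr6:51467391-51467426, minus strand). The 2 spliced forms are printed from the start codon into exon 3, from the GENCODE M21 transcripts, because the share of this exon is what differed; the exon is in capitals, and it keeps the reading frame.
Hnrnpa2b1 with the exon: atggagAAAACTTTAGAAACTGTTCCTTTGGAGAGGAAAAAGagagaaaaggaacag
Hnrnpa2b1 without the exon: atggagagagaaaaggaacag

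This short exon held 0.63%, 0.60% and 0.62% of the gene's counts in WT, 0.42%, 0.36% and 0.34% in HSA-LR and 0.49%, 0.57% and 0.43% in treated gastrocnemius. In quadriceps it held 0.60%, 0.57% and 0.56% in WT, 0.38%, 0.40% and 0.38% in HSA-LR and 0.58%, 0.60% and 0.60% in treated mice. HSA-LR libraries were lowest without overlap in both muscles, on 239 to 655 counts a library. In gastrocnemius the relative log2 change was -0.71 (edgeR adjusted P = 0.029). In quadriceps it was -0.57, which edgeR did not call (adjusted P = 1.0) and limma did (-0.55, adjusted P = 0.020). Treated against HSA-LR quadriceps, limma gave 0.57 (adjusted P = 0.019) and edgeR an adjusted P of 0.93. In gastrocnemius neither tool called treated against HSA-LR (limma 0.38, adjusted P = 0.44). Every treated gastrocnemius library lay above every HSA-LR and below every WT library, and neither tool called treated against WT.

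Srsf5, whose RNA is known as an early-response transcript, differed at an alternative first exon. Bin 12 (chr12:80945673-80945798, plus strand) is 126 bases of a 214-base first exon and lies in a 5′ UTR. It held 0.93%, 1.17% and 1.06% of counts in WT, 1.71%, 1.73% and 1.62% in HSA-LR and 1.09%, 0.92% and 0.96% in treated gastrocnemius. In quadriceps the shares were 1.21%, 0.90% and 1.14% in WT, 1.88%, 1.77% and 1.59% in HSA-LR and 1.15%, 1.02% and 1.20% in treated mice. HSA-LR was highest without overlap in each muscle. In edgeR the change in gastrocnemius was 0.69 against WT (adjusted P = 0.064) and -0.77 for treated against HSA-LR (adjusted P = 0.050). Each call was lost under 7 of 14 alternatives (adjusted P up to 0.62 and 0.42). Among them was each library of the compared groups left out and, for treated against HSA-LR, the coverage ratio. In quadriceps edgeR gave 0.71 (adjusted P = 0.30) and limma 0.71 (adjusted P = 0.0060).

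Stau1, the ubiquitous Staufen protein of RNA transport and decay, differed in rare noncoding pieces. Bin 17, 957 bases of a retained intron (chr2:166951347-166952303, minus strand), held 0.46% to 0.47% of counts in WT, 0.64% to 0.94% in HSA-LR and 0.27% to 0.51% in treated gastrocnemius. In quadriceps it held 0.29% to 0.38%, 0.54% to 0.69% and 0.35% to 0.48%. HSA-LR was above WT without overlap in each muscle, but edgeR did not call it (0.78 and 0.84, adjusted P = 0.34 and 1.0), and limma did (adjusted P = 0.016 and 0.076). edgeR called it for treated against HSA-LR gastrocnemius, at -1.12 (adjusted P = 0.046), and not with the coverage ratio in the model (adjusted P = 0.33). Bin 33, a 114-base exon of a noncoding transcript, had 2, 0 and 3 counts in WT, 11, 8 and 10 counts in HSA-LR and 12, 5 and 0 counts in treated gastrocnemius. The relative log2 change of HSA-LR against WT was 2.49 (adjusted P = 0.022), and with the coverage ratio in the model it was 2.10 (adjusted P = 0.22). In quadriceps it had 4, 1 and 6 counts in WT, 15, 22 and 18 in HSA-LR and 5, 4 and 8 in treated mice (edgeR adjusted P = 0.13, limma 0.0069). These are few reads, and the HSA-LR libraries were above the WT libraries in each muscle.

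Stau2 differed in a last exon. Bin 13 is 110 bases of a 2526-base final exon (chr1:16345594-16345703, minus strand) and touches coding sequence. It held 1.40%, 1.31% and 1.09% of counts in WT, 2.16%, 2.36% and 2.35% in HSA-LR and 1.47%, 1.23% and 1.46% in treated quadriceps. The relative log2 change between HSA-LR and WT was 0.87 (adjusted P = 0.088). The call was lost under 9 of 14 alternatives, among them each WT and each HSA-LR library left out (adjusted P up to 0.89). In gastrocnemius it held 1.61%, 1.16% and 0.83% in WT and 1.59%, 2.21% and 1.92% in HSA-LR mice, with an overlap and an adjusted P of 0.20. The UTR bin next to it, bin 12, went from 5.44% to 6.01% in WT to 8.92% to 10.5% in HSA-LR quadriceps (edgeR adjusted P = 0.15, limma 3.5e-05).

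Hnrnpab and Srsf6 differed at their 5′ ends in gastrocnemius. Bin 11 of Hnrnpab, the whole 181-base first exon (chr11:51606667-51606847, minus strand), held 0.82%, 1.54% and 1.59% of counts in WT, 0.82%, 0.61% and 0.50% in HSA-LR and 1.40%, 1.35% and 0.85% in treated mice. The relative log2 change was -1.02 between HSA-LR and WT (adjusted P = 0.0017) and 0.88 between treated and HSA-LR (adjusted P = 0.039). The lowest WT library, 0.822%, and the highest HSA-LR library, 0.819%, nearly met, and in quadriceps the groups overlapped (-0.19, adjusted P = 1.0). Bin 1 of Srsf6, the first 34 bases of the gene (chr2:162931528-162931561, plus strand), had 16, 34 and 46 counts in WT and 11, 9 and 9 counts in HSA-LR gastrocnemius, a change of -1.32 (adjusted P = 0.086). Treated gastrocnemius had 45, 26 and 9 counts. The call was lost under 7 of 13 alternatives, among them the replicate block and each HSA-LR library left out. In quadriceps the bin overlapped between HSA-LR and WT.

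Leaving out single libraries moved the gastrocnemius bin calls. Without HSA-LR replicate 3, 0 of the 6 bins were called between HSA-LR and WT, and without treated replicate 3 the number was 10. Bin 1 of Hnrnpd in quadriceps kept its call against WT under all 14 alternatives tried.

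Bins that occur only in transcripts annotated for NMD were read as a measure of poison-exon use. NMD exons shared with any other transcript type fall outside this class. Shares of NMD-only bins are of the RNA left after any decay, so they are not rates of inclusion. There were 13 such bins in 8 of the 31 placed genes. For the bin with the most counts in each gene, the stop codon lay inside the bin in 6 of the 8 genes. Windows of 27 bases around that stop, in capitals, are printed for the 5 of these with counts in every library, because they are the elements whose share was measured.
Tra2a bin 11 (chr6:49252953-49252979, minus strand): agattggtcagaTAGaagcacttgaat
Srsf4 bin 4 (chr4:131884376-131884402, plus strand): catgccccagctTAGagtgcttcaccc
Hnrnpdl bin 20 (chr5:100038581-100038607, minus strand): gctggaccccagTAGccttccccacta
Hnrnpll bin 13 (chr17:80044964-80044990, minus strand): agaagcccacttTGAaaatgtgttgct
Dhx9 bin 29 (chr1:153476508-153476534, minus strand): tttaagcctggcTGAgaaacatactgt

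The poison exon of Tra2a, a 306-base exon that follows the first exon, held the largest share of them, and the bins differ in length. It held 6.25%, 7.53% and 5.87% of the gene's counts in WT, 7.83%, 5.59% and 6.64% in HSA-LR and 6.84%, 6.29% and 5.53% in treated gastrocnemius. In quadriceps it held 5.67%, 6.67% and 4.88% in WT, 6.14%, 5.50% and 5.28% in HSA-LR and 6.18%, 6.03% and 5.71% in treated mice. HSA-LR overlapped WT in both muscles, and the relative log2 change between HSA-LR and WT was 0.04 in gastrocnemius and -0.01 in quadriceps (adjusted P = 1.0 in each). The level of Tra2a fell in HSA-LR quadriceps, and the share of this exon did not pass the test there.

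Srsf4 includes a 188-base NMD-only bin at 1.80 ± 0.36% of its counts in WT and 1.68 ± 0.19% in HSA-LR gastrocnemius, and 1.95 ± 0.20% and 1.67 ± 0.19% in quadriceps (mean ± SD, n = 3). The quadriceps groups did not overlap, and the test gave an adjusted P of 1.0. In Hnrnpd, the 71-base bin 9 held 0.72 ± 0.09% in WT and 0.63 ± 0.07% in HSA-LR gastrocnemius. In Hnrnpll, the 83-base bin 13 held 0.75 ± 0.13% and 0.79 ± 0.22%. The 139-base bin 29 of Dhx9 held 0.23 ± 0.06% and 0.29 ± 0.05%. Bin 21 of Hnrnph3 lies in a first exon and holds no annotated stop. It had 7, 17 and 15 counts in WT and 5, 5 and 4 counts in HSA-LR gastrocnemius. These shares did not overlap and did not pass the test (relative log2 change -1.40, adjusted P = 0.38), and in quadriceps HSA-LR and WT overlapped. Bin 23 of Stau2 had 0 counts in all WT and HSA-LR libraries.

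Over all NMD-only bins of a gene, 6 of the genes described here had at least 10 counts on average. Only Hnrnpdl had shares that did not overlap between HSA-LR and WT, in gastrocnemius (0.45% to 0.55% in WT, 0.40% to 0.43% in HSA-LR), and none did in quadriceps. The NMD-only bin of Hnrnpdl with the most counts, bin 20, lies in a first exon, so it is not an exon inserted between others. Among all genes with an NMD-only share, 27.2% of 389 did not overlap in gastrocnemius and 21.9% of 379 in quadriceps. With retained introns and other noncoding bins added, 8 of 22 genes did not overlap in gastrocnemius and 5 of 22 in quadriceps, when 13.6% of 5365 and 10.7% of 5230 genes did not. Srsf10 and Stau1 were higher in HSA-LR mice in both muscles. The noncoding share of Srsf10 was 1.84%, 1.91% and 1.54% in WT, 3.08%, 2.77% and 2.87% in HSA-LR and 1.71%, 2.13% and 0.96% in treated gastrocnemius. Srsf9 was lower in quadriceps, at 11.8%, 15.6% and 12.4% in WT and 8.48%, 7.46% and 10.7% in HSA-LR mice, and held 14.1%, 15.3% and 16.5% after treatment. Its bin 5, 358 bases shared by an NMD and another noncoding transcript, is part of this share. In quadriceps bin 5 held 7.6%, 9.6% and 9.6% in WT, 6.4%, 4.3% and 7.7% in HSA-LR and 10.1%, 10.85% and 12.4% in treated mice. HSA-LR overlapped WT, and treated mice lay above both (against HSA-LR, edgeR adjusted P = 0.32, limma 0.015). In gastrocnemius its groups overlapped.

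**Figure D4:**
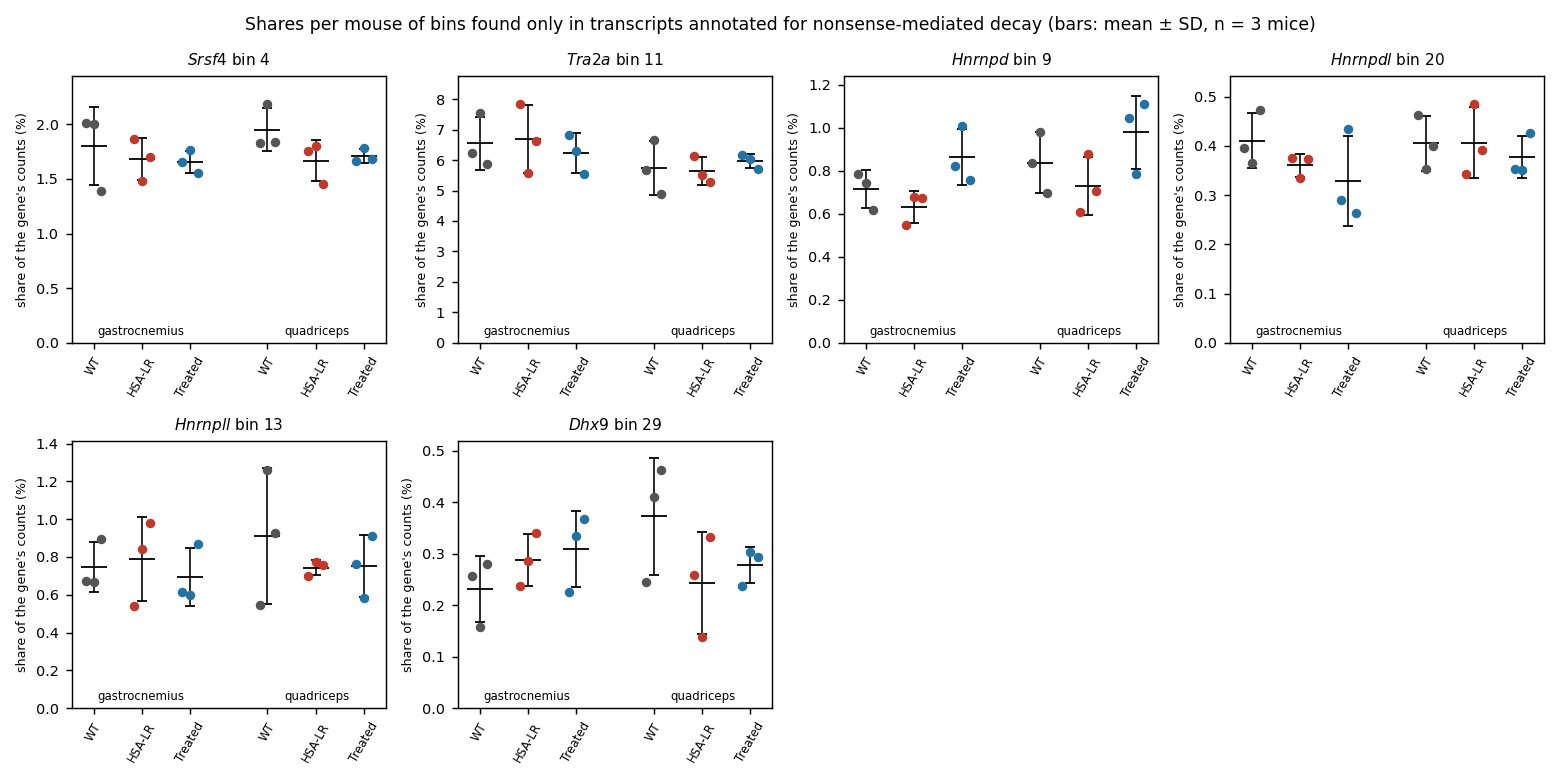
Share of the gene's counts (%) held by the NMD-only bin with the most counts, for the 6 genes with at least 10 counts in it on average, 1 point per mouse, with WT in grey, HSA-LR in red and treated in blue, gastrocnemius left and quadriceps right in each panel, and bars for mean ± SD (n = 3). The HSA-LR and WT points overlap in all 6 panels except in the quadriceps of Srsf4, and Tra2a is the highest at 4.88% to 7.83%.

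Srsf3, the shortest SR protein, has a well known poison exon, but its bins could not be placed. Its bin 8 of 16 held 3.0%, 2.56% and 2.96% of counts in WT, 4.31%, 4.52% and 4.06% in HSA-LR and 3.15%, 3.19% and 2.40% in treated gastrocnemius. In quadriceps it held 2.50%, 2.96% and 2.69% in WT, 3.86%, 4.49% and 3.69% in HSA-LR and 3.25%, 3.48% and 2.52% in treated mice. HSA-LR was highest without overlap in each muscle. edgeR gave unadjusted P = 0.0043 and 0.0095 (adjusted P = 0.31 and 1.0), and limma called it in quadriceps (adjusted P = 0.077). Which exon this bin belongs to was not determined, and it was singled out after its values were seen. Among the 9 genes without placed bins edgeR called no bin.

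Phosphorylation sets where SR proteins sit and how they act, and the SR kinases were read alongside. The backgrounds for the counts of these kinases and the next 2 lists are those above, 8.60% higher and 6.94% lower in HSA-LR gastrocnemius and 11.0% higher and 9.31% lower in quadriceps. Of the 7 SR kinases tested, 3 rose in HSA-LR gastrocnemius (Srpk2, Srpk3 and Clk2), and in quadriceps 2 rose (Clk2 and Srpk2) and 1 fell (Clk3). Srpk2, a cytoplasmic SR kinase, was 32.4, 32.7 and 28.3 CPM in WT and 41.2, 39.6 and 41.6 CPM in HSA-LR gastrocnemius, a log2 difference of 0.39 ± 0.08 (adjusted P = 0.014). In quadriceps Srpk2 differed by 0.44 ± 0.13 (adjusted P = 0.059). Clk3, a nuclear SR kinase, was 72.3, 79.6 and 72.8 CPM in WT, 46.9, 53.7 and 61.4 CPM in HSA-LR and 71.9, 74.4 and 78.5 CPM in treated quadriceps (HSA-LR against WT -0.47 ± 0.10, adjusted P = 0.018). The HSA-LR mice were below both other groups without overlap. Treated against HSA-LR, Clk3 rose in quadriceps (0.47 ± 0.10, adjusted P = 0.031) and Srpk2 fell in gastrocnemius (-0.28 ± 0.08, adjusted P = 0.074). Clk2, another nuclear SR kinase, differed from WT by 0.28 ± 0.08 and 0.27 ± 0.08 in gastrocnemius and quadriceps (adjusted P = 0.053 and 0.058). Srpk3, a kinase found mainly in muscle, differed by 0.30 ± 0.08 in gastrocnemius (adjusted P = 0.037).

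Against the same backgrounds, of 8 NMD factors none was called in HSA-LR gastrocnemius and 2 fell in quadriceps, Smg5 (-0.37 ± 0.09, adjusted P = 0.032) and Smg6 (-0.26 ± 0.08, adjusted P = 0.077). Treated against HSA-LR, Smg5 rose in both muscles (0.39 ± 0.11 and 0.58 ± 0.09, adjusted P = 0.076 and 0.011), and in quadriceps Smg6 (0.32 ± 0.08, adjusted P = 0.056) and the helicase Upf1 (0.32 ± 0.07, adjusted P = 0.025) rose, with 4.49% and 6.54% of all genes called higher in the respective muscles. Of 14 related splicing regulators tested, 1 rose and 1 fell in HSA-LR gastrocnemius and 1 rose and 2 fell in quadriceps. Pcbp4, a poly(C)-binding protein, had the largest difference among them, at 141, 133 and 146 CPM in WT, 90.4, 86.6 and 93.3 CPM in HSA-LR and 146, 153 and 146 CPM in treated quadriceps (HSA-LR against WT -0.64 ± 0.07, adjusted P = 0.00079). In gastrocnemius Pcbp4 differed by -0.43 ± 0.12 (adjusted P = 0.056). Treated against HSA-LR, Pcbp4 rose in both muscles (0.50 ± 0.12 and 0.72 ± 0.07, adjusted P = 0.053 and 0.0015), as did Pcbp1 (0.27 ± 0.08 and 0.23 ± 0.07, adjusted P = 0.093 and 0.085). The paralog Pcbp3 rose against WT in both muscles of HSA-LR mice (0.47 ± 0.14 and 0.63 ± 0.14, adjusted P = 0.068 and 0.017), and Rsrp1 fell in quadriceps (-0.38 ± 0.14, adjusted P = 0.098). None of the genes of these 3 lists was called between treated and WT mice.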

How the data were processed

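Poly(A)-selected RNA from 18 muscle samples was sequenced from stranded libraries. The authors deposited raw read counts per exon bin for each library. The submitters' processing notes name CASAVA, HISAT and featureCounts 1.5.0 with GRCm38, without order or settings. Reads assigned to no gene, 2.82% to 4.14% of a library, were left out. Gene counts were sums of a gene's bins. Bins were placed on GENCODE M21 (GRCm38) where gene version and bin number matched (41124 of 41149 genes of the same version).

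Differences were tested per muscle over 9 libraries with edgeR 4.0.16 quasi-likelihood fits (TMM scaling, filterByExpr with a minimum count of 10 and total of 15, Benjamini-Hochberg adjustment over all genes or bins, calls at 0.1), and for bins with diffSpliceDGE. SE is the log2 change divided by the square root of F. DESeq2 1.42.0, limma 3.58.1 and the alternatives of the closing section were also run. The functions were tested on simulated data. Replicate numbers were taken to name the same mouse in both muscles. Deviations of same-numbered samples of a group correlated between muscles (median r 0.29, from 0.14 to 0.68, n = 9 pairs). For other numbers r ran from -0.56 to 0.39 (median -0.13, n = 18 pairs). The mouse was therefore a block in an alternative fit of the difference between muscles. Same-numbered mice of different groups did not correlate (median r 0.00 within a muscle, n = 18 pairs).

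The members and lists were chosen with earlier results of these data known. Values are given for every gene and bin called by edgeR in the main fit, for the NMD-only bin with most counts in each gene and for the called genes of 3 lists, in the comparisons where they were called. Of the bins called by limma alone, only some are described.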

Additional observations from a re-analysis of the deposited data

How the results depend on the processing

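Alternatives were other scaling (RLE), other tools, other filters on low counts, the largest bin in place of the gene sum, the replicate number as a block, the 5′ to 3′ coverage ratio as a covariate, and each library left out in turn. All changes of called genes and bins kept their sign, and 315 recomputed calls were kept and 135 lost. Genes called between HSA-LR and WT gastrocnemius went from 3 to 5 with DESeq2, the largest bin and the covariate, and to 1 to 5 without single libraries (1 without WT replicate 1, WT replicate 2 or HSA-LR replicate 3). In quadriceps, 2 to 6 were called (2 without HSA-LR replicate 2). Between treated and HSA-LR gastrocnemius, 5 became 3 with the covariate and 1 to 5 without single libraries. In quadriceps, 4 became 2 with any gene of at least 1 count, 2 with the replicate block, 0 with the covariate and 2 to 4 without single libraries. Bins called between HSA-LR and WT gastrocnemius went from 6 to 14 with limma, 3 with a minimum count of 50 and 0 to 10 without single libraries. In quadriceps, 2 became 14 with limma, 1 with any bin of at least 1 count, 5 with the replicate block and 1 to 2 without single libraries. Treated against HSA-LR bins went from 4 to 9 with limma and 0 to 4 without single libraries in gastrocnemius, and from 1 to 15 with limma and 0 to 2 in quadriceps. Treated against WT quadriceps had 0 to 1 bins. Genes with a non-overlapping NMD-only share went from 1 to 8 in gastrocnemius and 0 to 5 in quadriceps with all noncoding bins (of 22, where 13.6% and 10.7% of all genes did not overlap), and to 1 to 2 and 0 to 2 without single libraries. The replicate block changed no other count by over 1.5 times, and within a muscle the numbers do not pair mice. Causes of these changes were not tested. With 3 mice a group, an exact permutation test of 1 value cannot go below 0.10. Shares of bins with under 20 counts are limited by counting error.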
